A study of Mus musculus with 9 samples.

Results

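Glutamate, GABA and glycine receptor subunits were described as a set of 39 genes, taken by symbol from the 50764 genes of the deposited count table, in which all 39 were found. The set holds 4 AMPA, 6 NMDA, 5 kainate and 1 delta ionotropic glutamate receptor genes and 6 metabotropic glutamate receptor genes. It also holds 9 GABA-A, 2 GABA-A rho, 2 GABA-B and 4 glycine receptor genes. The libraries came from cells labelled as retinal ganglion cells of wild-type adult male mice. In all 9, the optic nerve had been crushed 14 days earlier, and 1.5 µL of an adeno-associated virus had been put into the vitreous, also 14 days before collection by the labels. The virus carried GFP in the 3 control libraries (GFP group), Olig2 in 3 libraries (Olig2 group) and Olig3 in 3 libraries (Olig3 group). Both factors belong to the basic helix-loop-helix family and act in neural progenitors. The title of the series also names Olig1/2 as the virus, and the groups here follow the sample labels. Each library pooled 10 to 20 GFP-positive cells picked by hand after enrichment on beads against Thy1, with limits that differ between parts of the labels. Whether libraries of the same group stem from different mice is not stated, so each p-value reflects variation among libraries that could be technical. No promoter is named for the transgenes.

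AMPA, NMDA, kainate and delta receptors are tetrameric cation channels or channel-like receptors built from related subunits, and metabotropic glutamate receptors act through G proteins. GABA-A, rho and glycine receptors are pentameric chloride channels, whereas GABA-B receptors are G-protein-coupled heterodimers. In the retina, photoreceptors and bipolar cells release glutamate, and amacrine and horizontal cells release GABA or glycine. Ganglion cells carry AMPA and NMDA receptors for bipolar cell input and GABA-A and glycine receptors for amacrine cell input. Receptors built from rho subunits are best known from the axon terminals of bipolar cells.

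Total counts ran from 5355691 to 6979851 per library, and a gene with a count of 0 may have had up to 3 counts, or 0.430 to 0.560 CPM (counts scaled to the library total) and 0.381 to 0.750 TMM-scaled CPM. The complementary DNA was amplified over 20 cycles without molecular identifiers, and limits and intervals cover counting error only. Levels of single genes are CPM scaled by TMM factors, which correct for library composition, and are mean ± SD over 3 libraries. The factors ran from 0.749 to 1.19 and were under 1 in Olig2 libraries 2 and 3 and Olig3 library 2 only, so scaling raised the levels there and lowered them in the other 6. Without scaling, the median log2 difference over all genes was -0.31 rather than 0.06 for Olig2 against GFP, -0.42 rather than -0.18 for Olig3 against GFP and -0.10 rather than -0.23 for Olig3 against Olig2. Olig2 had 114, 97 and 21 counts in the Olig2 libraries, 0 in every GFP library and 6, 4 and 0 in the Olig3 libraries. Olig3 had 172, 113 and 597 counts in the Olig3 libraries, 13, 0 and 40 in the GFP libraries and 0, 5 and 7 in the Olig2 libraries. Transcripts of other retinal cells were abundant. The summed level of 15 ganglion cell markers was 879 to 1783 CPM (unscaled) in the GFP group, 191 to 391 in the Olig2 group and 141 to 308 in the Olig3 group, and 5 of the 15 had counts in every library. The 15 rod markers, all counted in every library, summed to 32129 to 49226, 55580 to 92506 and 47057 to 103088 CPM. Marker sums of both cell types gave exact two-sided permutation p values of 0.1 or 0.2 against GFP, where 0.1 is the smallest that 3 against 3 libraries allow. Sums weigh abundant markers most, and single ganglion cell markers differed. In TMM-scaled CPM, Pou4f1 (4.54 and 5.03), Ebf3 (6.94 and 14.1) and Isl2 (0.893 and 3.08) had higher means with Olig3 than GFP, with overlap. With Olig2 only Pou4f2 did (1.10 and 1.11). The other ganglion cell markers had lower means. Because the RNA was pooled, fewer cells of a type and less RNA per cell cannot be told apart. Olig3 libraries 1 and 3 had the fewest detected genes (16188 and 14434, against 18184 to 21338 elsewhere). In Olig2 libraries 2 and 3 and Olig3 library 2, 29.7 to 38.2% of the counts fell on the 10 most abundant genes, against 12.9 to 16.2% in the others.

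Receptor transcripts were a small part of every library. The 39 genes together held 0.0626 to 0.152% of the counts, from 3353 counts in Olig3 library 2 to 8978 in Olig3 library 3. Every one of the 39 had a count in at least 1 library, and 24 had a count in all 9. The number of receptor genes without a count was 2, 4 and 5 in the GFP libraries 1 to 3, 7, 1 and 1 in the Olig2 libraries and 6, 2 and 14 in the Olig3 libraries. Olig3 library 3, which had the fewest detected genes of the 9, thus also lacked the most receptor genes. GFP library 1 had 37 of the 39 at 10 counts or more, while the other 8 libraries had 21 to 32. The filter on low counts kept 34 of the 39 for testing. Grin2c, Grm3, Grik3, Grik4 and Gabra4 were not tested.

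Compared per kilobase (kb) of exon, so that genes of different length can be set side by side, the rho subunits led the receptor genes. Gabrr2 had 48.8 ± 17.3 and Gabrr1 20.5 ± 11.5 TMM-scaled CPM per kb (SD over all 9 libraries). Then came Glrb, the glycine receptor beta subunit (11.3 ± 3.32), the AMPA subunit gene Gria2 (11.0 ± 4.06), the kainate subunit gene Grik1 (10.5 ± 4.73) and Gria4 (9.74 ± 3.32). These 4 lay within their spread of each other. The lowest were Grin2c, with counts in 3 libraries and at most 5, and Grm3, with counts in 2 libraries and at most 5. Both had 0 counts in the 3 GFP libraries. The order per kb depends on the lengths, which join all annotated exons of a gene (2105 bases for Gabrr2, 15548 for Gria2). Not divided by length, Gria2 averaged 125, 162 and 226 TMM-scaled CPM in the GFP, Olig2 and Olig3 groups. Gabrr2 averaged 64.9, 113 and 130. The AMPA class then summed higher than the rho class in every library.

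**Figure D1:**
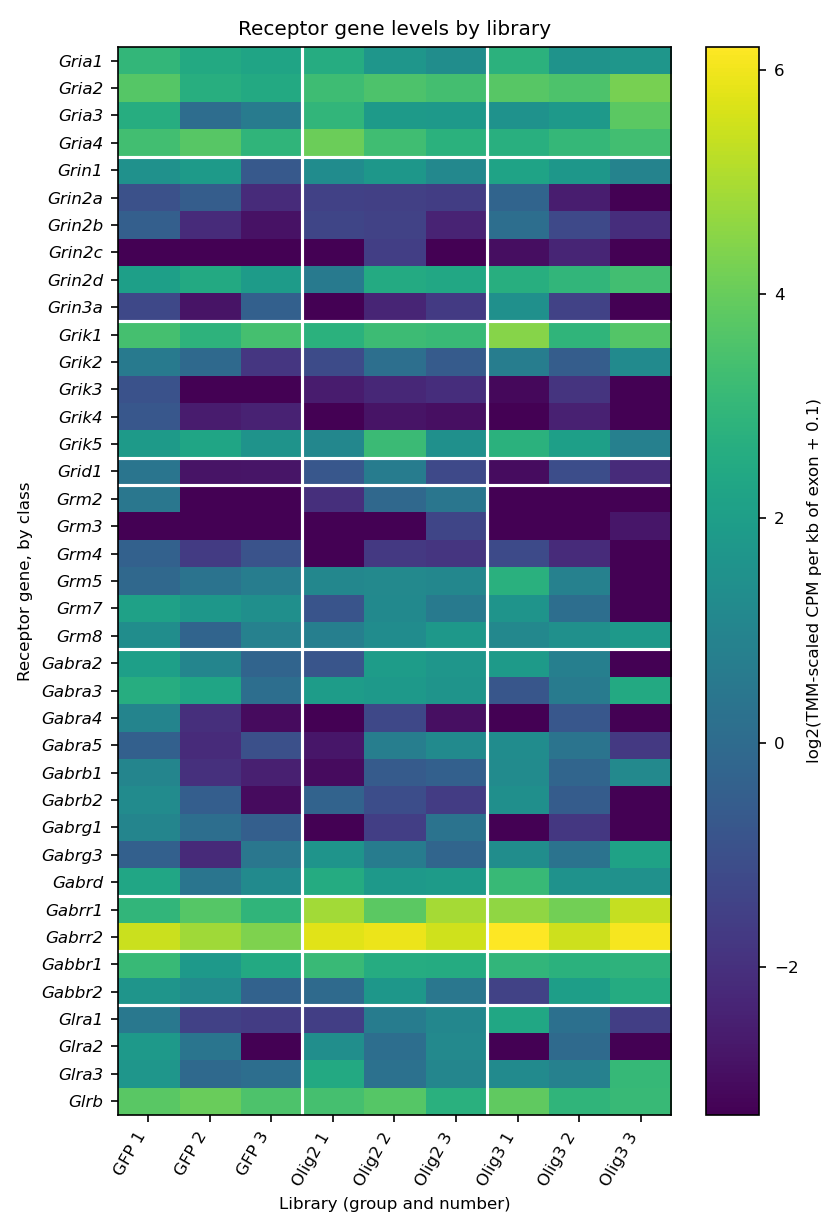
Level of each of the 39 receptor genes (rows, by class) in the 9 libraries (columns), as log2 of TMM-scaled CPM per kb of exon plus 0.1. Gabrr2 and Gabrr1 are the brightest rows, and the darkest cells, genes without a count, are most frequent in Olig3 library 3 with 14.

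As shares of the summed counts per kb of the 39 genes, the rho class separated GFP from both factor groups. It took 28.4, 32.3 and 28.9% in the GFP libraries, 45.9, 41.0 and 46.8% in the Olig2 libraries and 41.6, 41.5 and 47.1% in the Olig3 libraries. All 6 factor libraries thus lay above all 3 GFP libraries. The glutamate receptor genes together took 39.9 to 45.1% in the GFP group, 31.4 to 36.5% in the Olig2 group and 33.6 to 37.2% in the Olig3 group. Glycine receptor genes took 11.8 to 14.3%, 7.80 to 10.1% and 7.32 to 9.26%. Both ranges of the factor groups lay below those of the GFP group. Without division by exon length, the glutamate shares of GFP overlapped those of both factor groups. The glycine shares of GFP then overlapped those of Olig2 but not those of Olig3, and the rho shares still did not overlap. These shares sum to 100% within a library, so a higher share of one class lowers the others, and they were not tested because the genes were chosen with results of these data known. The AMPA class took 19.4 to 20.4%, 14.1 to 21.5% and 12.3 to 19.9%, and the Olig2 range spanned the GFP range. Shares of the NMDA, kainate, metabotropic, GABA-A, GABA-B and delta classes overlapped between GFP and each factor group.

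**Figure D2:**
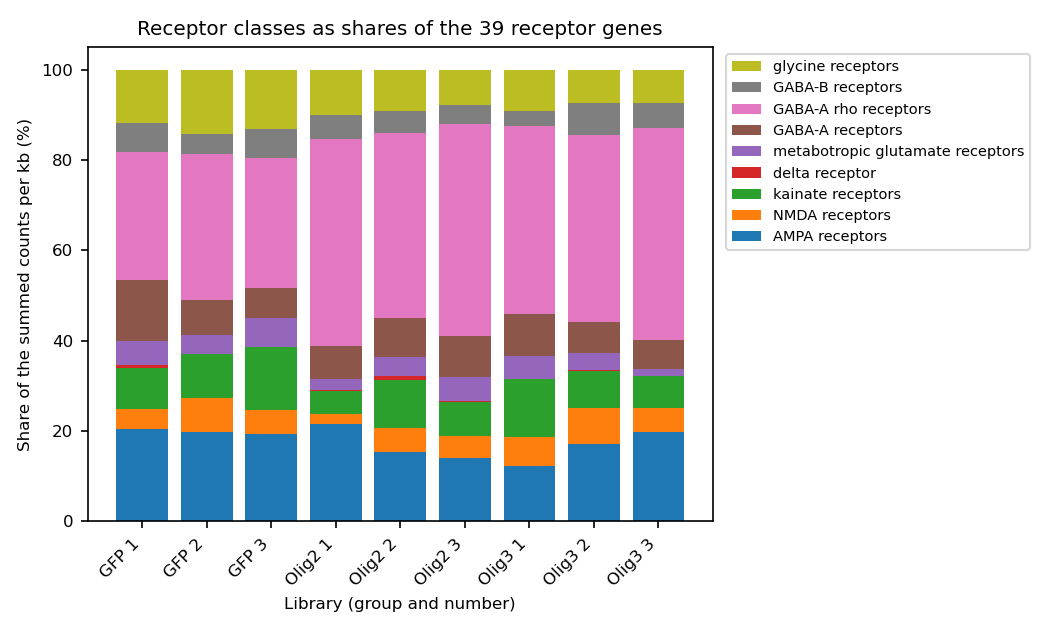
Share of each receptor class in the summed counts per kb of exon of the 39 genes (stacked bars, percent), for each of the 9 libraries. The rho class takes 28.4 to 32.3% in the GFP libraries and 41.0 to 47.1% in the 6 factor libraries.

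The first comparison asked how receptor transcripts differed in cells given Olig2 rather than GFP. By the edgeR quasi-likelihood test over 15609 genes, 0 of the 34 tested receptor genes passed an adjusted p of 0.05, where 0.0513% of all genes did. DESeq2 and limma-voom also called 0. At an unadjusted p under 0.05, 2 receptor genes were higher, Gabrr1 and Gabrr2, where 2.61% of all genes were, and 0 were lower, where 2.08% were (4.68% in either direction). The libraries of both groups did not overlap for 3 receptor genes that lay higher (Gabrr1, Gabrr2 and the metabotropic gene Grm5; 8.47% of all genes) and 2 that lay lower (Grm7 and Grm4; 8.35% of all genes). In either direction 16.8% of all genes did not overlap. On unscaled CPM, 0 receptor genes lay higher without overlap (2.73% of all genes) and 5 lay lower, Grin2d, Grik1, Glrb, Grm7 and Grm4 (18.0% of all genes). The median log2 difference of the 34 genes was 0.22, beside 0.06 over all genes tested, and over all 39 receptor genes it was 0.31. The count of 2 higher genes became 5 without GFP library 1, and 1 without GFP library 2, without Olig2 library 1, without Olig2 library 2 or without the 3 libraries with the most concentrated counts, and 0 without scaling factors. Leaving out GFP library 1 gave a median of 0.75, and leaving out GFP library 3 gave -0.20. Without scaling factors it was -0.16.

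The second comparison set Olig3 against GFP. By edgeR, 0 of the 34 receptor genes passed an adjusted p of 0.05 (0.205% of all genes did). limma-voom also called 0, and DESeq2 called 1, Gabrr1, at a log2 change of 1.58 and an adjusted p of 0.0307. At an unadjusted p under 0.05, 4 receptor genes were higher, Gabrr1, Gabrr2, Gria2 and Gabrg3, where 5.76% of all genes were. Grm2 alone was lower, where 6.37% were (12.1% in either direction). The libraries did not overlap for 3 genes that lay higher (Gabrr1, Gabrr2 and Grin2d; 7.18% of all genes) and 1 that lay lower (Gabrg1; 10.0% of all genes), and 17.2% of all genes did not overlap in either direction. On unscaled CPM, 0 lay higher (2.09% of all genes) and 1, again Gabrg1, lay lower (16.4%). The median log2 difference of the 34 genes was 0.27 beside -0.18 over all genes, and over all 39 it was 0.12. The count of 4 higher genes became 6 without GFP library 1, 2 without GFP library 2 and 0 without Olig3 libraries 1 and 3, which leaves 1 Olig3 library that is assumed to vary like the other groups. It became 1 (Gabrr1) without scaling factors. The count of 1 lower gene became 0 without GFP library 1, Olig2 library 2, Olig2 library 3 or Olig3 libraries 1 and 3. It became 2 without Olig2 library 1, without Olig3 library 2, without the 3 libraries with the most concentrated counts, or without scaling factors. Leaving out GFP library 1 gave a median of 0.77, leaving out GFP library 3 gave -0.06, and leaving out the 3 libraries with the most concentrated counts gave -0.13. Without scaling factors it was 0.017. Both comparisons against GFP share the GFP libraries.

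Set directly against each other, Olig3 and Olig2 libraries gave 0 of 34 receptor genes past an adjusted p of 0.05 by edgeR (0.0384% of all genes), by DESeq2 and by limma-voom. At an unadjusted p under 0.05, 0 were higher (2.07% of all genes) and 1, Grm2, was lower (3.05%, and 5.12% in either direction). The libraries did not overlap for Grin2d and Gabrb1, which lay higher in the Olig3 group (4.41% of all genes), and for Grm2 and the glycine receptor gene Glra2, which lay lower (8.69%, and 13.1% in either direction). The same 4 genes did so on unscaled CPM. The count of 0 higher genes became 1 in 4 of the 9 fits that left out 1 library (Olig2 library 2 or any Olig3 library), 2 without scaling factors (Grin2d and Grik1) and 4 without a filter. The count of 1 lower gene became 0 when library 3 of the Olig2 group, or library 1 or 3 of the Olig3 group, was left out, and 2 without Olig3 library 2. The median log2 difference was 0.15 beside -0.23 over all genes, and -0.20 without Olig3 library 1.

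**Figure D3:**
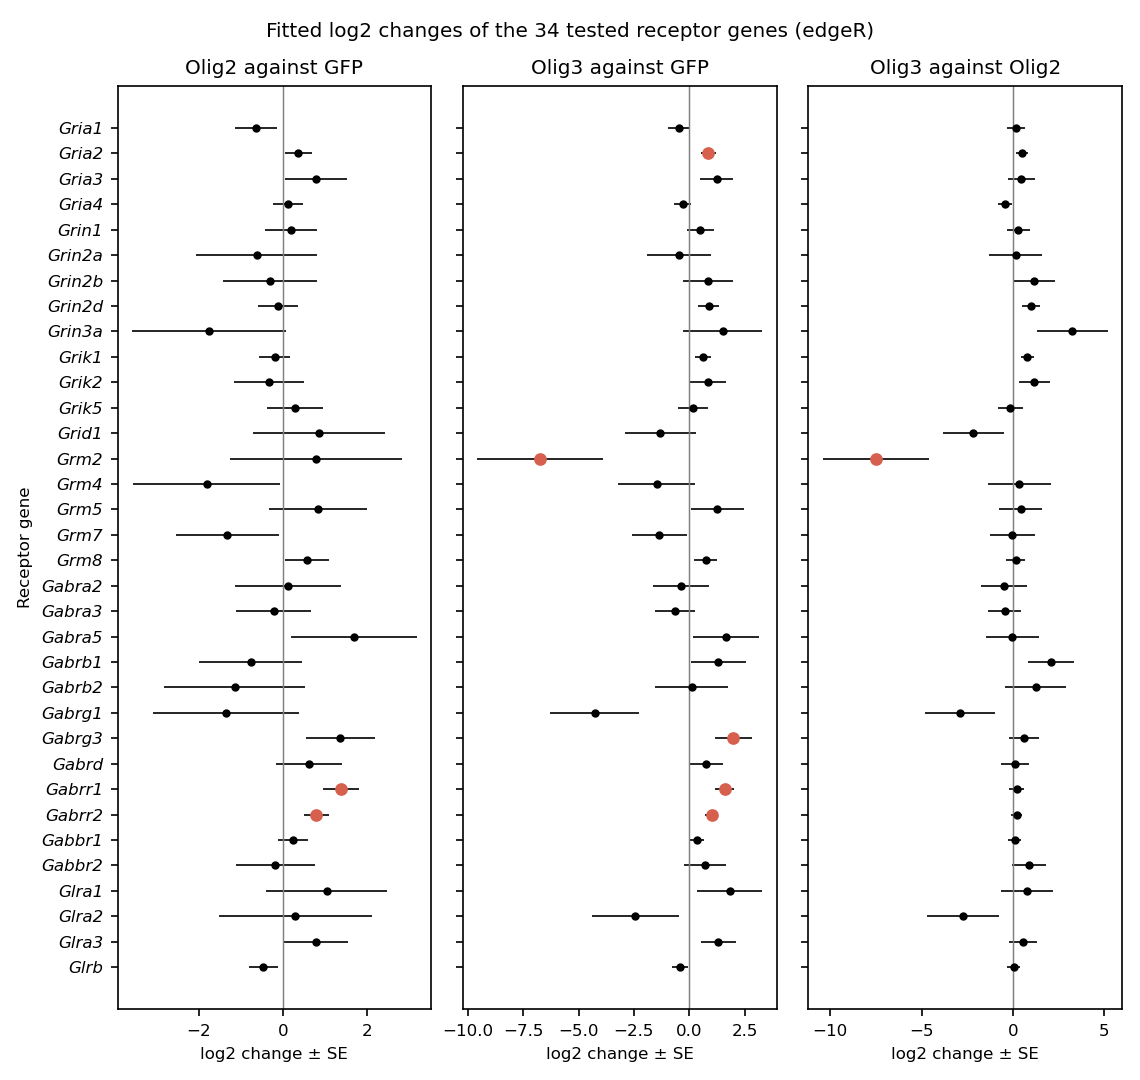
Fitted log2 change (points) of the 34 tested receptor genes in each comparison, by edgeR, with red points at an unadjusted p under 0.05. Bars are standard errors worked back from the F statistic. None passed an adjusted p of 0.05. The fitted value of Grm2, which has 0 counts in the Olig3 libraries, depends on the prior count, and so does its bar.

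The rho subunits Gabrr1 and Gabrr2 form GABA-gated chloride channels that desensitise little. Their genes are neighbours on chromosome 4 on the plus strand, Gabrr2 at chr4:33062999-33095865 and Gabrr1 at chr4:33132521-33163588 of mm10, with 36655 bases between them. Gabrr1 had 17.5, 29.6 and 16.9 CPM in the GFP libraries, 67.3, 31.7 and 68.2 in the Olig2 libraries and 56.0, 41.0 and 94.5 in the Olig3 libraries. On this TMM scale every factor library lay above every GFP library, Olig2 library 2 narrowly. On unscaled CPM the groups overlapped, with 20.0, 33.4 and 20.0 in the GFP libraries, 73.5, 24.5 and 56.1 with Olig2 and 59.0, 30.6 and 109 with Olig3. The group means were 21.3 ± 7.16, 55.7 ± 20.8 and 63.8 ± 27.6 CPM (SD, n = 3 each). Gabrr1 was thus 2.61-fold the GFP mean with Olig2 (edgeR log2 change 1.39, SE 0.42, adjusted p = 0.665). With Olig3 it was 2.99-fold (log2 change 1.58, SE 0.42, edgeR adjusted p = 0.184). Without scaling factors the log2 changes were 1.07 and 1.43 (edgeR adjusted p = 0.824 and 0.293). Over the 21 alternative settings the edgeR, DESeq2 or limma-voom adjusted p of Gabrr1 ran from 0.125 to 1.00 with Olig2 and from 0.0108 to 1.00 with Olig3.

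Gabrr2 had 91.0, 60.3 and 43.5 CPM in the GFP libraries, 116, 127 and 96.3 with Olig2 and 155, 92.8 and 142 with Olig3. On this scale again no factor library lay below a GFP library, and the closest were Olig3 library 2 and GFP library 1. Unscaled, the groups overlapped, with 104, 68.1 and 51.5 CPM in the GFP libraries, 127, 98.2 and 79.3 with Olig2 and 163, 69.3 and 164 with Olig3. Its mean was 1.74-fold that of GFP with Olig2 (log2 change 0.80, SE 0.30, edgeR adjusted p = 0.881). It was 2.00-fold with Olig3 (log2 change 1.00, SE 0.30, edgeR adjusted p = 0.247). Without scaling factors the log2 changes were 0.44 and 0.83 (edgeR adjusted p = 0.964 and 0.400). Between the factor groups the log2 changes, Olig3 over Olig2, were 0.20 (SE 0.41) for Gabrr1 and 0.20 (SE 0.30) for Gabrr2, with edgeR adjusted p of 0.967 and 0.954. The log2 changes of both genes kept their sign in all 21 alternative settings of both comparisons against GFP.

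Bipolar cell markers moved with the rho genes. The 13 markers, of which 11 had counts in every library and 0 were at 0 throughout, summed to 847 to 902 TMM-scaled CPM in the GFP group, 1481 to 1863 with Olig2 and 1492 to 1892 with Olig3. Unscaled, they summed to 956 to 1068, 1218 to 2034 and 1114 to 2038 CPM, also without overlap, and these sums gave an exact permutation p of 0.1 against GFP for both factors (adjusted p = 0.25 over 20 tests of marker lists). Opposite-strand genes overlap 51.48% of the exon bases of the marker Pcp2 (Pet100) and 51.62% of those of Gng13 (Chtf18). Pcp2 had 82.6 unscaled CPM in GFP library 3 and 157 in Olig3 library 2. With Pcp2 taken out, the unscaled sums of Olig3 overlap GFP. Per 100 counts of all 13 markers, Gabrr2 had 10.1, 7.12 and 4.82 counts in the GFP libraries, 6.23, 7.93 and 6.51 with Olig2 and 8.19, 6.22 and 8.06 with Olig3. Measured this way the Gabrr2 values of both factor groups lay inside the range of the GFP group. Gabrr1 had 1.95, 3.49 and 1.87 counts per 100 marker counts in the GFP libraries, 3.61, 1.98 and 4.60 with Olig2 and 2.96, 2.75 and 5.35 with Olig3, and the groups overlapped.

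**Figure D4:**
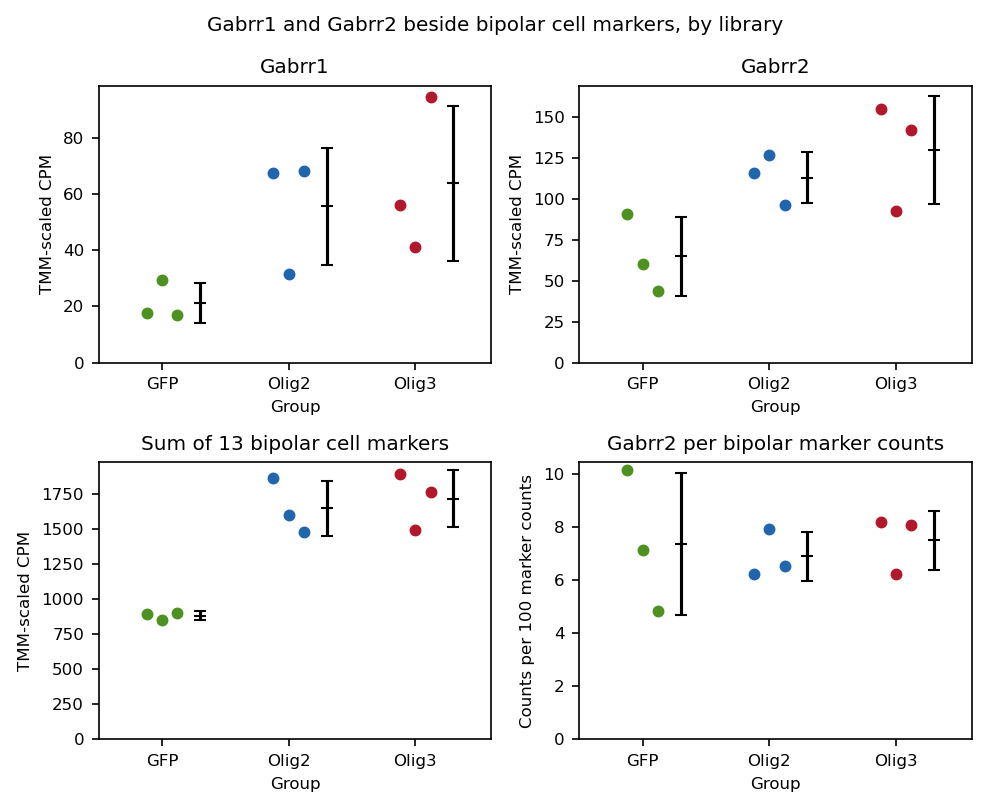
TMM-scaled CPM of Gabrr1, of Gabrr2 and of the sum of 13 bipolar cell markers, and Gabrr2 counts per 100 marker counts, by group (points are libraries, bars mean ± SD, n = 3). On the TMM scale of the first 3 panels GFP overlaps neither factor group, whereas unscaled Gabrr1 and Gabrr2 overlap, and in the last panel the factor groups lie within the GFP range of 4.82 to 10.1.

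Because both rho genes had higher means in both factor groups, and Olig factors as basic helix-loop-helix proteins bind E-boxes (CANNTG), the stretches before their starts are shown with E-boxes in capitals. They come from RefSeq promoters of GRCm38.p6, 5′ to 3′ on the plus strand, cut where the first annotated exon of either source begins.
Gabrr1, chr4:33132306-33132520: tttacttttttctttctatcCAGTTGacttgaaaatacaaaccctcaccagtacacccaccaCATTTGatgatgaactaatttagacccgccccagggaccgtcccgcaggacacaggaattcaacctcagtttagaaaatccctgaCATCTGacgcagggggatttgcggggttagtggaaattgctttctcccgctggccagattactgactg
Gabrr2, chr4:33062862-33062998: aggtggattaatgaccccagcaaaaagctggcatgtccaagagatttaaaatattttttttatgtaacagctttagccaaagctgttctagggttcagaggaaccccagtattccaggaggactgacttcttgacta
The printed Gabrr1 stretch of 215 bases held 3 matches and the printed Gabrr2 stretch of 137 bases held 0. The pattern reads the same on both strands. In the full 250 bases before the RefSeq start there were 3 and 1. Neither gene held the forms CATATG or CAGCTG in those 250 bases, and 3.46% and 13.0% of all promoter entries did. Of all 32851 promoter entries, 66.2% held at least 1 match in their 250 bases and 31.8% held 2 or more, with a median of 1. The 28 receptor genes with an entry had 35 entries, and 14 of these genes held a match in at least 1. The shares of all entries are by entry and the count of 14 is by gene, so they are not alike. A match is thus common and describes the letters only.

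Gria1 to Gria4 encode the AMPA receptor subunits, which carry fast excitatory transmission. Gria2, whose edited subunit limits calcium entry, had 197, 95.5 and 83.4 CPM in the GFP libraries, 148, 180 and 157 with Olig2 and 202, 179 and 297 with Olig3. GFP library 1 lay among the factor libraries, so the groups overlapped. The Olig3 mean of 226 ± 62.8 CPM was 1.80-fold the GFP mean of 125 ± 62.5 (log2 change 0.85, SE 0.33, edgeR adjusted p = 0.336). The Olig2 mean was 162 ± 17.0 CPM, with a log2 change of 0.37 (SE 0.33). Gria1 had 47.6, 32.5 and 28.2 CPM in the GFP libraries, 35.8, 18.6 and 14.7 with Olig2 and 41.7, 17.3 and 18.9 with Olig3. The first library of each factor group overlapped the GFP range and the others lay below it (Olig2 against GFP: log2 change -0.64, SE 0.50, edgeR adjusted p = 1.00).

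Within the AMPA class, per kb, Gria1 made up 21.5, 21.1 and 24.8% in the GFP libraries and 15.0, 11.0 and 10.7% in the Olig2 libraries, without overlap. In the Olig3 libraries it made up 23.8, 11.1 and 6.81%, which overlaps GFP. Gria2 made up 24.1 to 34.7% in the GFP group, 24.0 to 44.3% with Olig2 and 41.6 to 44.8% with Olig3. The Olig3 values thus lay together above the GFP values. Gria4 ranged from 40.0 to 105 CPM and Gria3 from 9.39 to 135 CPM over the 9 libraries. The highest value of Gria3 came from Olig3 library 3 and the lowest from GFP library 2.

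NMDA receptors combine the obligatory subunit of Grin1 with Grin2 or Grin3 subunits. Grin2d, whose subunit gives slowly deactivating channels, led the class per kb and took 71.8 to 98.7% of the Grin2 level in every library. It had 26.9, 35.8 and 24.4 CPM in the GFP libraries, 9.27, 37.0 and 34.6 with Olig2 and 41.4, 51.3 and 66.2 with Olig3. The Olig3 libraries lay above both other groups. On unscaled CPM they lay above the Olig2 libraries but overlapped GFP. The Olig3 mean of 53.0 ± 12.4 CPM was 1.82-fold that of GFP (log2 change 0.87, SE 0.48, edgeR adjusted p = 0.501) and 1.96-fold that of Olig2 (log2 change 0.98, SE 0.48, edgeR adjusted p = 0.933). An opposite-strand gene, Gm45441, overlaps 9.66% of the Grin2d exon bases.

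Grin1 had 5.09 to 34.1 CPM in the GFP group, 20.5 to 31.2 with Olig2 and 17.8 to 43.2 with Olig3, and the groups overlapped. Its model shares 13.5% of its exon bases with the opposite-strand gene Grin1os. Grin2a and Grin2b, the subunit genes best known from forebrain synapses, ranged from 0 to 13.4 and from 0.937 to 24.3 CPM. Grin3a, whose subunit lowers calcium permeability, had 3.89, 0.508 and 8.17 CPM in the GFP libraries, 0, 1.19 and 2.51 with Olig2 and 32.1, 3.25 and 0 with Olig3. Of the 231 counts in the Olig3 group, 218 came from library 1. The log2 change between the factor groups was 3.25 (SE 1.93, edgeR adjusted p = 0.933), and it was 0.37 at the lowest when 1 library was left out.

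The kainate receptor gene Grik1, whose subunit serves transmission to OFF bipolar cells, had 69.9, 47.0 and 70.8 CPM in the GFP libraries, 44.8, 60.8 and 58.5 with Olig2 and 148, 50.0 and 84.6 with Olig3. Olig3 libraries 1 and 3 lay above all others and library 2 lay inside the range of the rest. On unscaled CPM the Olig2 libraries lay below the GFP libraries. Against Olig2, the Olig3 mean was 1.72-fold (log2 change 0.79, SE 0.37, edgeR adjusted p = 0.933). With Olig3 libraries 1 and 3 left out, the log2 change was -0.12. Grik1 took 47.1 to 77.1% of the kainate level per kb and Grik5, whose subunit works only with a partner, 10.1 to 46.8%. Grik2 ranged from 2.41 to 29.6 CPM, Grik3 from 0 to 3.89 and Grik4 from 0 to 2.99, with the highest value of the last 2 in GFP library 1. The delta receptor gene Grid1 had 7.18, 0.254 and 0.268 CPM in the GFP libraries, 3.00, 9.06 and 1.97 with Olig2 and 0.147, 2.25 and 0.733 with Olig3, and was highest in Olig2 library 2.

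Among the metabotropic receptors, that of Grm5 acts through phospholipase C and calcium, and those of Grm2, Grm3, Grm4, Grm7 and Grm8 lower cyclic AMP. Grm8, the highest of the class per kb, had 24.4, 7.24 and 16.9 CPM in the GFP libraries, 16.3, 23.8 and 32.1 with Olig2 and 20.8, 26.3 and 33.3 with Olig3, and the groups overlapped. Grm7, a presynaptic receptor, had 24.8, 19.0 and 15.1 CPM in the GFP libraries, 2.71, 12.9 and 8.07 with Olig2 and 17.3, 5.75 and 0 with Olig3. The Olig2 libraries lay below the GFP range (log2 change -1.32, SE 1.22, edgeR adjusted p = 1.00), while Olig3 library 1 lay inside it. Grm5 had 8.53, 11.6 and 15.7 CPM in the GFP libraries and 21, 21.9 and 21 with Olig2 (log2 change 0.84, SE 1.18, edgeR adjusted p = 1.00). Its Olig3 values ran from 0 to 67.4 CPM, the widest of the groups. Grm7, Grm5 and Grm4 are given because their libraries did not overlap, a choice made after their values were seen. On unscaled CPM, Grm5 overlapped between GFP and Olig2.

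Grm2, a presynaptic autoreceptor, was read in few libraries. It had 42, 0 and 0 counts in the GFP libraries, 5, 17 and 34 with Olig2 and 0 in all 3 Olig3 libraries. Only GFP library 1 in its group had a count, and all 3 Olig2 libraries did. Against a floor of 3 counts in each Olig3 library, the mean level was at least 3.85-fold lower with Olig3 than with GFP and at least 6.65-fold lower than with Olig2 (edgeR adjusted p = 0.381 and 0.933). Without GFP library 1 no counts remain in the first of these comparisons. An opposite-strand gene, Gm28111, overlaps 9.60% of the Grm2 exon bases. Grm4 ranged from 0 to 4.04 CPM.

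GABA-A receptor genes of the alpha, beta, gamma and delta types were spread thinly and unevenly. Gabrd, whose subunit sits in extrasynaptic receptors, was the highest of the class per kb, with 14.1, 3.43 and 6.43 CPM in the GFP libraries, 16.4, 10.0 and 10.4 with Olig2 and 24.2, 8.0 and 7.78 with Olig3. These ranges overlapped. Gabrg3, a gamma subunit gene, had 7.93, 1.40 and 15.0 CPM in the GFP libraries, 35.5, 17.9 and 9.15 with Olig2 and 28.9, 13.5 and 53.0 with Olig3. GFP library 3 lay inside both factor ranges. The means were 8.11 ± 6.80, 20.9 ± 13.4 and 31.8 ± 19.9 CPM, 2.57-fold with Olig2 (log2 change 1.36, SE 0.82, edgeR adjusted p = 1.00) and 3.92-fold with Olig3 (log2 change 1.97, SE 0.83, edgeR adjusted p = 0.372).

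Gabrg1, another gamma subunit gene, had the opposite order. Its counts were 101, 61 and 37 in the GFP libraries, 0, 8 and 50 with Olig2 and 0, 6 and 0 with Olig3. In CPM the GFP libraries had 15.1, 7.74 and 4.95, the Olig2 libraries 0, 1.91 and 8.97 and the Olig3 libraries 0, 1.50 and 0. All Olig3 libraries lay below all GFP libraries (18.5-fold lower by the means, log2 change -4.28, SE 2.01, edgeR adjusted p = 0.427). Olig2 library 3 lay inside the GFP range. The log2 change of Olig3 against Olig2 was -2.93 (SE 1.92, edgeR adjusted p = 0.934).

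Gabrb1, a beta subunit gene, had 26.3, 2.03 and 1.07 CPM in the GFP libraries, 0.285, 7.87 and 9.15 with Olig2 and 32.3, 10.5 and 29.9 with Olig3. The Olig3 libraries lay above the Olig2 libraries (4.2-fold, log2 change 2.08, SE 1.27, edgeR adjusted p = 0.933), and GFP library 1 lay among them. Gabra5 had 1 to 48 counts per library and 0.143 to 7.08 CPM, with a log2 change of 1.69 with Olig2 (SE 1.50, edgeR adjusted p = 1.00). That change was -2.89 without the 3 libraries with the most concentrated counts, which leaves 1 Olig2 library, with 1 count of Gabra5. Gabra2 ranged from 0 to 31.3, Gabra3 from 1.92 to 23.6, Gabra4 from 0 to 11.2 and Gabrb2 from 0 to 16.2 CPM. Gabra2, Gabra3 and Gabra4 were each highest in GFP library 1. The unscaled sum of the 9 GABA-A genes was 167 CPM there against 59.9 and 45.5 in the other GFP libraries. Gabra4 and Gabrb1 overlap head to head, by 0.756% of the exon bases of Gabra4.

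The GABA-B receptor needs both of its subunits, one of which binds the ligand (Gabbr1) while the other couples to G proteins (Gabbr2). Gabbr1 had 64.9, 26.3 and 41.6 CPM in the GFP libraries, 66.9, 45.3 and 44.5 with Olig2 and 58.4, 52.0 and 55.3 with Olig3. These values overlapped, and the log2 changes against GFP were 0.24 with Olig2 and 0.32 with Olig3 (SE 0.35 each; edgeR adjusted p = 1.00 and 0.756). Gabbr2 varied more, from 1.77 CPM in Olig3 library 1 to 37.8 in Olig3 library 3. Gabbr1 took 55.7 to 96.6% of the level of the pair per kb.

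Of the glycine receptor genes, Glrb, whose subunit anchors the receptor to gephyrin, led per kb with 50.2 to 90.7% of the class in every library. It had 62.3, 74.9 and 54.2 CPM in the GFP libraries, 48.7, 60.1 and 30.1 with Olig2 and 68.1, 34.5 and 39.6 with Olig3. In each factor group 1 library lay inside the GFP range and the others below it. On unscaled CPM all Olig2 libraries lay below GFP. The log2 changes were -0.46 with Olig2 and -0.43 with Olig3 (SE 0.35 each; edgeR adjusted p = 1.00 and 0.676). Among the ligand-binding alpha subunit genes, Glra3 ranged from 7.87 CPM in GFP library 2 to 75.4 in Olig3 library 3, and Glra1 from 0.536 to 12.1. Glra2 had 72, 30 and 0 counts in the GFP libraries, 56, 13 and 38 with Olig2 and 0, 11 and 0 with Olig3. The Olig3 libraries lay below the Olig2 libraries (log2 change -2.75, SE 1.99, edgeR adjusted p = 0.934), a gene named after its values were seen.

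The genes around the receptors were read from 2 lists. Of 24 genes of transmitter synthesis and transport, all tested, 0 passed an adjusted p of 0.05 by edgeR in any comparison. At an unadjusted p under 0.05, 2 were higher and 2 lower with Olig2, where 2.61% and 2.08% of all genes were. With Olig3, 5 were higher and 2 lower (5.76% and 6.37% of all genes), and in Olig3 against Olig2, 1 was higher and 0 lower (2.07% and 3.05%). Their median log2 differences were 0.40, 0.23 and -0.14, beside 0.06, -0.18 and -0.23 over all genes. Slc17a6, the vesicular glutamate transporter of ganglion cells and one of their 15 markers, had 125, 118 and 133 CPM in the GFP libraries, 3.42, 29.3 and 12.4 with Olig2 and 7.96, 27.3 and 0 with Olig3. Both factor groups lay well below GFP without overlap. The means were 8.31-fold lower with Olig2 (log2 change -3.07, SE 1.09, edgeR adjusted p = 0.802). With Olig3 the log2 change was -3.45 (SE 1.11, edgeR adjusted p = 0.268). The summed ganglion cell markers were also lower, and their part in this difference was not tested.

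Slc1a3, the glutamate transporter of Muller glia, had 95.2, 78.1 and 320 CPM in the GFP libraries, 65.3, 67.5 and 40.5 with Olig2 and 77.1, 48.5 and 32.7 with Olig3 (Olig2 against GFP: log2 change -1.51, SE 0.51, edgeR adjusted p = 0.731). The log2 change was -0.58 without GFP library 3. In GFP library 3, which had the highest value, 11 Muller glia markers summed to 8089 unscaled CPM, against 1091 to 4622 in the other 8 libraries. Glul, the glutamine synthetase of the same cells, had 92.3, 108 and 108 CPM in the GFP libraries and 196, 348 and 180 with Olig2 (2.35-fold, log2 change 1.23, SE 0.42, edgeR adjusted p = 0.742). Both genes are counted in that marker list, and they lay on opposite sides of GFP in the Olig2 group.

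Slc6a9, a glycine transporter of amacrine cells, had 19.8, 35.5 and 31.6 CPM in the GFP libraries, 119, 49.1 and 43.6 with Olig2 and 92.0, 60.8 and 197 with Olig3, and both factor groups lay above GFP (Olig3 against GFP: 4.03-fold, log2 change 2.01, SE 0.50, edgeR adjusted p = 0.148). The 13 amacrine cell markers, Slc6a9 among them, summed to 164 to 555, 514 to 646 and 369 to 804 TMM-scaled CPM and overlapped between GFP and each factor. Slc1a2, a glutamate transporter, had 136, 124 and 134 CPM in the GFP libraries and 315, 177 and 270 with Olig3 (1.93-fold, log2 change 0.95, SE 0.23, edgeR adjusted p = 0.145). Slc12a5, the neuronal chloride extruder, had 115, 103 and 74.6 CPM and 223, 172 and 151 (1.86-fold, log2 change 0.90, SE 0.26, edgeR adjusted p = 0.217). In both of these the Olig3 libraries lay above the GFP libraries, but on unscaled CPM they overlapped. For Slc6a9, unscaled values of the Olig2 group overlapped GFP and those of the Olig3 group did not. Opposite-strand genes (Ccdc24, Gm17114 and B4galt2) overlap 30.25% of the Slc6a9 exon bases.

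Between the factor groups, the smallest p values of this list belonged to Slc1a2, Gad1 and Slc38a2. Slc1a2 had 179, 156 and 166 CPM with Olig2, and its Olig3 level was 1.52-fold that (log2 change 0.60, SE 0.23, edgeR adjusted p = 0.933). Gad1, which makes GABA, had 159, 168 and 189 CPM with Olig2 and 48.8, 93.3 and 105 with Olig3, and 37.0 to 213 in the GFP group (log2 change -1.06, SE 0.52, edgeR adjusted p = 0.933). For Gad1 the factor groups did not overlap, whereas the summed amacrine cell markers, Gad1 among them, did. Slc38a2, an amino acid transporter that carries glutamine, had 46.2, 64.6 and 76.8 CPM with Olig2 and 98.7, 60.5 and 148 with Olig3 (1.63-fold, log2 change 0.71, SE 0.35, edgeR adjusted p = 0.933). Olig3 library 2 lay inside the Olig2 range, and the log2 change was -0.042 without Olig3 libraries 1 and 3.

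**Figure D5:**
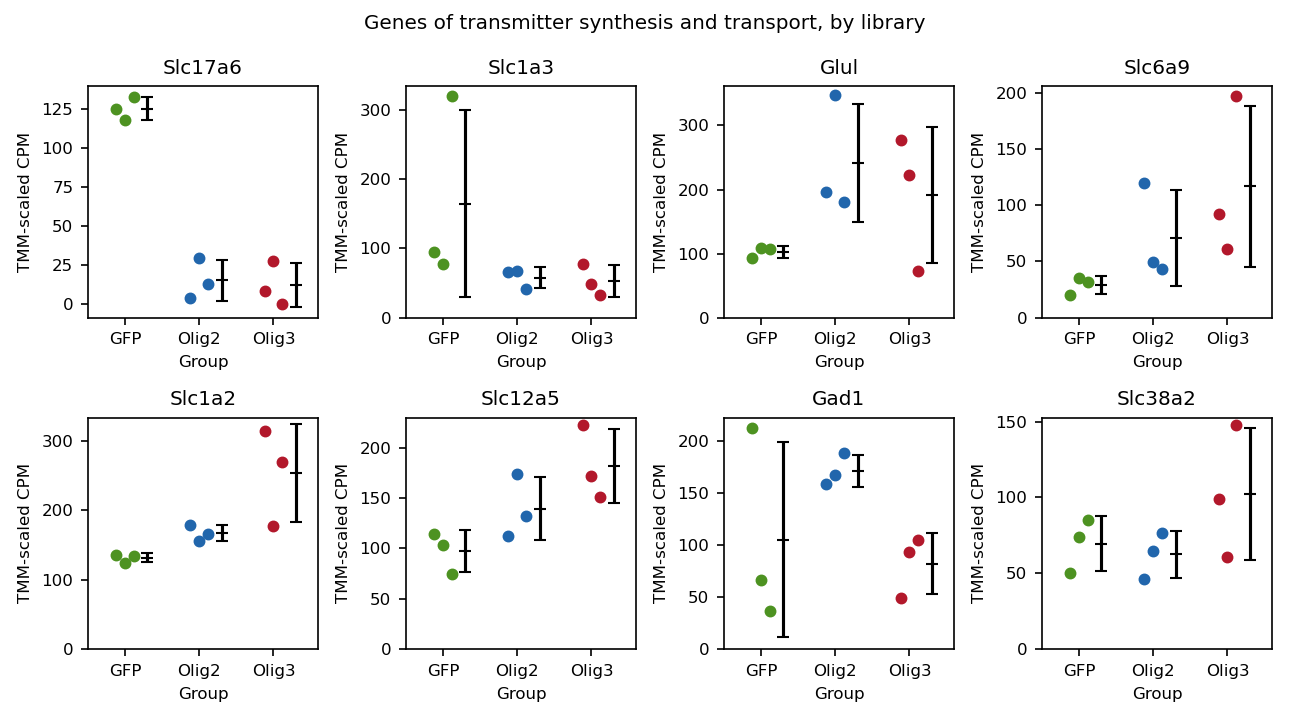
TMM-scaled CPM of 8 genes of transmitter synthesis and transport by group (points are libraries, bars mean ± SD, n = 3). Slc17a6 lies at 118 to 133 CPM in the GFP libraries and at 0 to 29.3 in the 6 factor libraries, whereas Gad1 separates the factor groups from each other.

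Of 42 genes for auxiliary subunits and scaffolds, 37 were tested and 0 passed an adjusted p of 0.05 by edgeR in any comparison. At an unadjusted p under 0.05, 0 were higher or lower with Olig2, where 4.68% of all genes were. With Olig3, 0 were higher and 1 was lower (5.76% and 6.37% of all genes). In Olig3 against Olig2, 1 was higher and 0 were lower (2.07% and 3.05%). Their median log2 differences were 0.25, -0.15 and -0.46, beside 0.06, -0.18 and -0.23 over all genes. Neto1, an auxiliary subunit of kainate receptors, had 21.4, 6.98 and 17.3 CPM in the GFP libraries, 6.99, 7.15 and 1.79 with Olig2 and 0.147, 2.25 and 0 with Olig3. The Olig3 libraries lay below all GFP libraries (19.0-fold lower by the means, log2 change -4.31, SE 1.45, edgeR adjusted p = 0.282). Against Olig2 the log2 change was -2.80 (SE 1.37, edgeR adjusted p = 0.933).

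Shisa9, which binds AMPA receptors, had 10.5, 7.36 and 25.2 CPM in the GFP libraries and 0, 5.00 and 0.440 with Olig3 (log2 change -3.02, SE 1.39, edgeR adjusted p = 0.414). Kctd8, an auxiliary subunit of GABA-B receptors, had 21.4, 8.50 and 7.23 CPM and 23.3, 14.0 and 46.7 (log2 change 1.18, SE 0.63, edgeR adjusted p = 0.491). The Shisa9 libraries did not overlap and those of Kctd8 did. With Olig2, the AMPA receptor auxiliary gene Gsg1l had 65, 17 and 23 counts against 4, 12 and 0 in the GFP libraries, without overlap (log2 change 3.00, SE 1.66, edgeR adjusted p = 1.00). The scaffold genes Shank1 (log2 change 1.71, SE 0.92) and Dlg1 (0.50, SE 0.32) overlapped GFP in the Olig2 group (edgeR adjusted p = 1.00 for both). Between the factor groups, the scaffold gene Dlgap1 had 39, 35.5 and 36.4 CPM with Olig2 and 97.8, 40.5 and 73.1 with Olig3 (edgeR adjusted p = 0.933). The adhesion gene Nlgn3 had 24.7, 18.1 and 12.4 CPM with Olig2 and 5.46, 5.5 and 0 with Olig3 (edgeR adjusted p = 0.933). Neither gene overlapped between the factor groups, Dlgap1 lying higher and Nlgn3 lower with Olig3, and on unscaled CPM Dlgap1 overlapped. A same-strand gene, Gm21986, overlaps 41.24% of the Nlgn3 exon bases.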

How the data were processed

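Poly-A RNA was measured in 9 libraries, 3 each for GFP, Olig2 and Olig3, grouped by their titles. The authors deposited raw read counts for each gene, in a single table without normalization. Per the submitters' processing notes the tools were FastQC, HISAT2 and HTSeq with build mm10; no version, annotation, filter or strand setting is named there, so reads of genes that overlap on opposite strands cannot be told apart. Members and lists were chosen with earlier results of these data known. All 39 receptor genes matched GENCODE M21, which gave exon lengths and coordinates.

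Counts were tested with edgeR 4.0.16 (R 4.3.3): TMM factors, the filterByExpr filter (15609 genes), one mean per group fitted to the 9 libraries together (common dispersion 0.532, with 6 degrees of freedom left), quasi-likelihood F test and Benjamini-Hochberg adjustment over all genes. Each SE is the size of the edgeR log2 change divided by the square root of its F statistic. It is approximate, above all where a group has 0 counts. Log2 differences of lists are differences between group means of log2 CPM (prior count 2). A fold is the ratio of group mean CPM, or a bound against 3 counts per library where a group has 0. The code was tested on simulated data that varied less between libraries than these data, so that test does not measure the power here. Genes named in full were, per comparison, receptor genes past the threshold (0) and the 6 with the smallest p, the highest per kb of each class, and the 3 smallest p of each further list. One gene of the transmitter list and one of the rod marker list are not reported here and were left out of the counts and sums of those lists. Others were named after their values were seen because their libraries did not overlap. Alternatives were RLE, upper quartile and TMMwsp factors, 2 other filters, DESeq2 1.42.0, limma-voom (limma 3.58.1), fits of only the 2 groups, a replicate block, a prior count of 0.5 and leaving out each library. Leaving scaling factors out, leaving out the 3 libraries richest in Malat1 (Olig2 libraries 2 and 3 and Olig3 library 2, which have the most concentrated counts) and dropping Olig3 libraries 1 and 3, which had the fewest genes, were chosen after seeing the data. Leaving out the 3 libraries richest in Malat1 leaves 1 Olig2 library, and dropping Olig3 libraries 1 and 3 leaves 1 Olig3 library. A group left with 1 library is assumed to vary like the others. Within groups, every pair of libraries differed by more than counting noise (chi-square per degree of freedom at least 29.5).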

Additional observations from a re-analysis of the deposited data

How the results depend on the processing

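The count of receptor genes past an adjusted p of 0.05 was 0 in all 21 alternatives for Olig2 against GFP and for Olig3 against Olig2. For Olig3 against GFP it was 1 (Gabrr1) without a filter and with DESeq2, and 0 in the other 19. Over all genes, the main counts of 8, 32 and 6 became 176, 556 and 140 without a filter and 90, 502 and 82 with DESeq2. They became 23, 0 and 2 in fits of only the 2 groups, 6, 78 and 1 with limma-voom, 0, 30 and 5 without scaling factors, and 0 to 24, 0 to 505 and 2 to 160 when 1 library was left out. Without the 3 libraries richest in Malat1 they were 5, 20 and 8, and without Olig3 libraries 1 and 3 they were 41, 0 and 0. The median log2 difference of the tested receptor genes ran from -0.20 to 0.75, from -0.06 to 0.77 and from -0.20 to 0.24 when 1 library was left out, in the same order of comparisons (each factor against GFP, then Olig3 against Olig2); the cause was not tested. Log2 changes turned for Gabra5 (-2.89) and Shank1 (-1.14) with Olig2 without the 3 libraries richest in Malat1, and for Grik1 (-0.12) and Slc38a2 (-0.042) in Olig3 against Olig2 without Olig3 libraries 1 and 3. Each of these fits leaves 1 library in a factor group. Grm2 without GFP library 1, and Gabrg1 in Olig3 against Olig2 without the 3 libraries richest in Malat1, had no counts left in either group. With TMM scaling the summed levels of the Olig2 group were 63.4 CPM against 54.7 unscaled for NMDA, 57.9 against 50.2 for metabotropic and 82.0 against 72.7 for GABA-A receptors. Same-numbered libraries showed no clear pairing: 1 of 9 pairs had a correlation of deviations over 0.1 (range -0.06 to 0.11), and 3 of 9 libraries matched best with their own number. Pairs of different numbers ranged from -0.115 to 0.0747, and a weak pairing could go unseen in this check. With the replicate block, 0 receptor genes were called in each comparison, and 10, 0 and 8 of all genes. A count of 0 allows up to 0.750 TMM-scaled CPM, so lower levels were not detectable at this depth.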
